A study of Mus musculus with 4 samples.

Results

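The genes described here run the endoplasmic reticulum (ER) stress response and the folding and disposal of proteins in that compartment. They are 33 genes chosen by function: ER chaperones, sensors of the unfolded protein response, targets of the transcription factor ATF4 and components of ER-associated degradation. Of the 45101 probe sets on the array, 78 carry one of these genes as their single platform symbol. Probe sets brighter than the array median on 2 or more of the 4 arrays passed a filter on low values, and each gene was read on its brightest one. In this way 32 of the 33 genes, all but Trib3, were among the 12424 genes tested.

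RNA came from gamma delta intraepithelial lymphocytes, T cells that sit between the cells of the gut lining, sorted from mouse colon. The 2 DSS samples came from C57b/6 mice, conventionally raised, that drank 2% dextran sulfate sodium (DSS), which damages the colonic lining, for 5 days and then plain water for 3 days. The 2 untreated samples came from C57b/6 mice, also conventionally raised, with no treatment. The labels do not say whether a sample is 1 animal or a pool, or whether replicates are separate sorts, so the p-values below measure the spread between these arrays only.

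Proteins bound for the cell surface, for secretion or for lytic granules fold in the ER, where chaperones hold them, disulfide isomerases join their cysteines and a degradation pathway returns failed molecules to the cytosol. When unfolded protein accumulates, 3 sensors named IRE1 (gene Ern1), PERK (Eif2ak3) and ATF6 (Atf6) signal to the nucleus. IRE1 splices the Xbp1 transcript, ATF6 is cut to release a transcription factor, and both drive chaperone and degradation genes. PERK phosphorylates the initiation factor eIF2 alpha, which slows translation but favours ATF4, and ATF4 drives amino acid and death-linked genes such as Ddit3 (CHOP). Arrays of this kind sum all transcript forms that a probe set binds and do not read Xbp1 splicing, cleavage of ATF6 or phosphorylation.

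The promoters of these genes are the textbook carriers of ER stress elements, so their sequence was read first. RefSeq promoter windows of build GRCm38.p6, from 250 bases before to 50 bases after the transcription start, were found for 29 of the 33 genes, in 30 windows. The ER stress element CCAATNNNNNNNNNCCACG, searched on both strands like the other motifs, occurred in 8 of these windows, against 0.119% of all 32851 windows of that length (39 windows). The genes with it were Hspa5, Hsp90b1, Calr, Canx, Dnajc3, Pdia6, Creld2 and Syvn1, and Hsp90b1 held 2 copies. The variant element II, ATTGGNCCACG, occurred in 2 windows (Herpud1 and Dnajb11), against 0.0365% of all windows. The C/EBP-ATF response element TGATGNAA, which ATF4 can bind, occurred in 4 windows (Chac1, Trib3, Asns and Herpud1), against 3.97% of all windows. The unfolded protein response element TGACGTGG occurred in 0 of the 30 windows and in 0.676% of all windows. None of these matches overlapped a match of another motif. Elements that differ from these letters were not counted, and a match is a stretch of sequence and not evidence of binding.

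The 4 windows below belong to the genes with a match that had the smallest limma p-values, though none of these genes passed the test. Capitals mark the match. The Pdia6 window lies at chr12:17266339-17266638, plus strand, with its ER stress element at -98 to -80 from the start. The Hspa5 window lies at chr2:34771840-34772139, plus strand, with the element at -65 to -47. The Syvn1 window lies at chr19:6046326-6046625, plus strand, with the element at -44 to -26. The Chac1 window lies at chr2:119350992-119351291, plus strand, and its capitals mark the C/EBP-ATF response element, read on the opposite strand at -193 to -186.
Pdia6: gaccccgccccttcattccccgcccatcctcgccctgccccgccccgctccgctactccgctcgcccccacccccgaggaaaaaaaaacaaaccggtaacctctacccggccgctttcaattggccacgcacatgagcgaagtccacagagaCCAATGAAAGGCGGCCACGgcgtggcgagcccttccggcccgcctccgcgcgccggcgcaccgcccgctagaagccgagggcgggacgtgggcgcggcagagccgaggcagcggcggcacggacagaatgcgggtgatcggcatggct
Hspa5: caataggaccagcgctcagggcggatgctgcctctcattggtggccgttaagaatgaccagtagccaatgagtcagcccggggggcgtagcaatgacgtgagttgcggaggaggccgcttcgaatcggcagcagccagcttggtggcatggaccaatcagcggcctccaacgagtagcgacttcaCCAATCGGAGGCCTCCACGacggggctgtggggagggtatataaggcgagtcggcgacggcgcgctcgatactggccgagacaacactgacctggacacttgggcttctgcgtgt
Syvn1: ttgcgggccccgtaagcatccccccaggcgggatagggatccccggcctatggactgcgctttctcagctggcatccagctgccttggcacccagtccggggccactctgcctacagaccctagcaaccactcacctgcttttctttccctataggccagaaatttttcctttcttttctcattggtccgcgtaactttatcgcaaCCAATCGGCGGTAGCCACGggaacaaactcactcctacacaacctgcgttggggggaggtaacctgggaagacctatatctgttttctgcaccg
Chac1: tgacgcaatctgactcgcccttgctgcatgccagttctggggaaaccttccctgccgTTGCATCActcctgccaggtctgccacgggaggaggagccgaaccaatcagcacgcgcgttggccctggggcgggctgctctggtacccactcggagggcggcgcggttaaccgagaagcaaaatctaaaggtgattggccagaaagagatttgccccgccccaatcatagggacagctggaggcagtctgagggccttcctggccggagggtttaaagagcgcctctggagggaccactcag

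**Figure D1:**
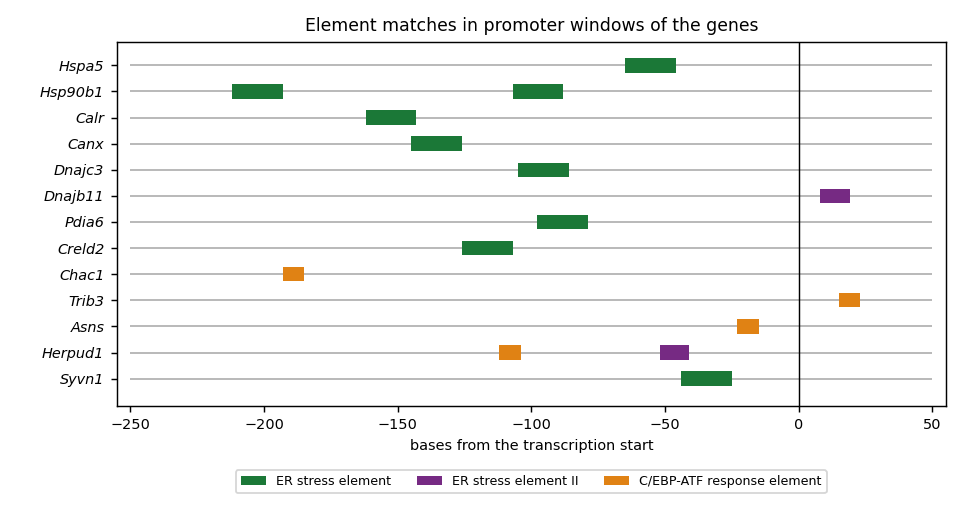
Positions of element matches in the promoter windows of 13 of the genes, in bases from the transcription start (vertical line); each bar is a match and each row a gene. ER stress elements (green) lie between -212 and -26, element II matches (purple) at -52 to -42 in Herpud1 and 8 to 18 in Dnajb11, and C/EBP-ATF response elements (orange) between -193 and 22.

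The arrays differed in ways that bear on every value here. Spiked hybridisation controls averaged 14372 and 15271 on the DSS arrays, against 82269 and 59067 on the untreated arrays, so differences of array processing and of treatment cannot be told apart. Median signals were 157.1 and 163.3 on the DSS arrays and 193.8 and 213.9 on the untreated arrays. Over the genes tested, Pearson's r was 0.92 for the DSS pair, 0.794 for the untreated pair and 0.817 to 0.854 for a DSS array with an untreated one. All 6 T cell and 10 intraepithelial lymphocyte markers read lay above the array median on all 4 arrays, and some of them moved with the groups. The T cell receptor subunit gene Cd3g read 17026 and 13219 on the DSS arrays and 10949 and 12539.6 on the untreated arrays, and the gamma variable gene Trgv4 read 29034 and 31855 on the DSS arrays and 41444 and 46104 on the untreated arrays. The T cell markers summed to 48890 and 46188 on the DSS arrays and 41951 and 67901 on the untreated arrays, and these groups overlapped. The intraepithelial lymphocyte markers summed to 292776 and 313060 on the DSS arrays, against 604197 and 516684 on the untreated arrays. Of these 10, DSS was on the lower side with separate groups for 4 (40%, against 23.8% of all genes). It was on the higher side for 1 (10%, against 17.2% of all genes), and 5 overlapped. Itgae (CD103), the integrin that holds such cells to the epithelium, read 43558 and 43518 on the DSS arrays, against 101512 and 98459.8 on the untreated arrays, and Cd8a read 17300.0 and 10690.2 on the DSS arrays, against 21119 and 24033 on the untreated arrays. Both gamma delta T cell markers tested, Trgv4 and Sox13, had DSS on the lower side, and Trdc, the delta constant gene, was not read here. The part of these shifts in the values below was not tested.

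Macrophage transcripts moved with the groups. The summed signal of 25 macrophage and dendritic cell markers was 91437 and 119682 on the DSS arrays, against 35564 and 38504 on the untreated arrays. Csf1r, a growth factor receptor that defines macrophages, read 33267 and 40991 on the DSS arrays, against 4342 and 1162 on the untreated arrays. Of the 20 such markers tested, 15 had groups that did not overlap with DSS on the higher side (75%, against 17.2% of all genes). For 2, DSS was on the lower side (10%, against 23.8% of all genes), and 3 overlapped. C1qc and Mrc1, among those on the higher side, passed the filter on low values only through the DSS arrays, which favours that side. Macrophages also express ER chaperones, and their part in the values below was not tested. Markers of B and plasma cells, which are rich in ER, summed to 4049 and 4935 on the DSS arrays and 3817 and 5648 on the untreated arrays, and their groups overlapped. Jchain, the joining chain of secreted antibodies, read 131 and 325 on the DSS arrays and 27.2 and 207 on the untreated arrays. Epithelial markers summed to 15613 and 14054 on the DSS arrays and 14239 and 10511 on the untreated arrays, and neutrophil markers to 1325 and 2921 on the DSS arrays and 2211 and 2243 on the untreated arrays. In sorted bulk RNA of this kind, a change in the cells present and a change in RNA per cell cannot be told apart.

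The comparison of DSS with untreated samples asked how the lymphocytes' transcripts stood after injury and early recovery. Among the ER genes the disulfide isomerases Pdia3, Pdia6 and P4hb and the chaperone Hspa5 had the largest positive differences, and the glutathione-degrading enzyme gene Chac1 and the stress regulator Sesn2 the largest negative ones. None of these differences passed the test. Limma, fitted on log2(signal + 32) with Benjamini-Hochberg adjustment, called 0 of the 32 genes at 0.05, as it called 0% of all 12424 genes, and the smallest adjusted p among the 32 was 0.649. At an unadjusted p under 0.05 there were 3 ER genes (9.38%), against 7.52% of all genes. They were Pdia3 and P4hb on the higher side, where the share of all genes was 3.71%, and Chac1 on the lower side, where it was 3.81%. Chac1 passed the filter on low values only through the untreated arrays, which favours a lower DSS side.

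The groups were also compared by whether their arrays overlapped, without a test. Both DSS arrays lay above both untreated arrays for 10 of the 32 genes (31.2%), against 17.2% of all genes. Both lay below for 5 of the 32 (15.6%), against 23.8% of all genes, and the groups overlapped for 17. With a margin of at least 2-fold there was 1 gene on the higher side, Pdia3, where 2.41% of all genes were, and 1 on the lower side, Chac1, where 3.01% of all genes were. The place of Chac1 there is favoured by the filter, which it passed only through the untreated arrays. The median log2 difference of the 32 genes was 0.20, against -0.07 for all genes, with 18 positive and 14 negative. With DSS replicate 1 left out it was -0.02, against -0.04 for all genes, with 14 positive and 18 negative. With DSS replicate 2 left out it was 0.36, against -0.04 for all genes. With this design an exact permutation of 2 arrays against 2 cannot give a two-sided p below 0.333.

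**Figure D2:**
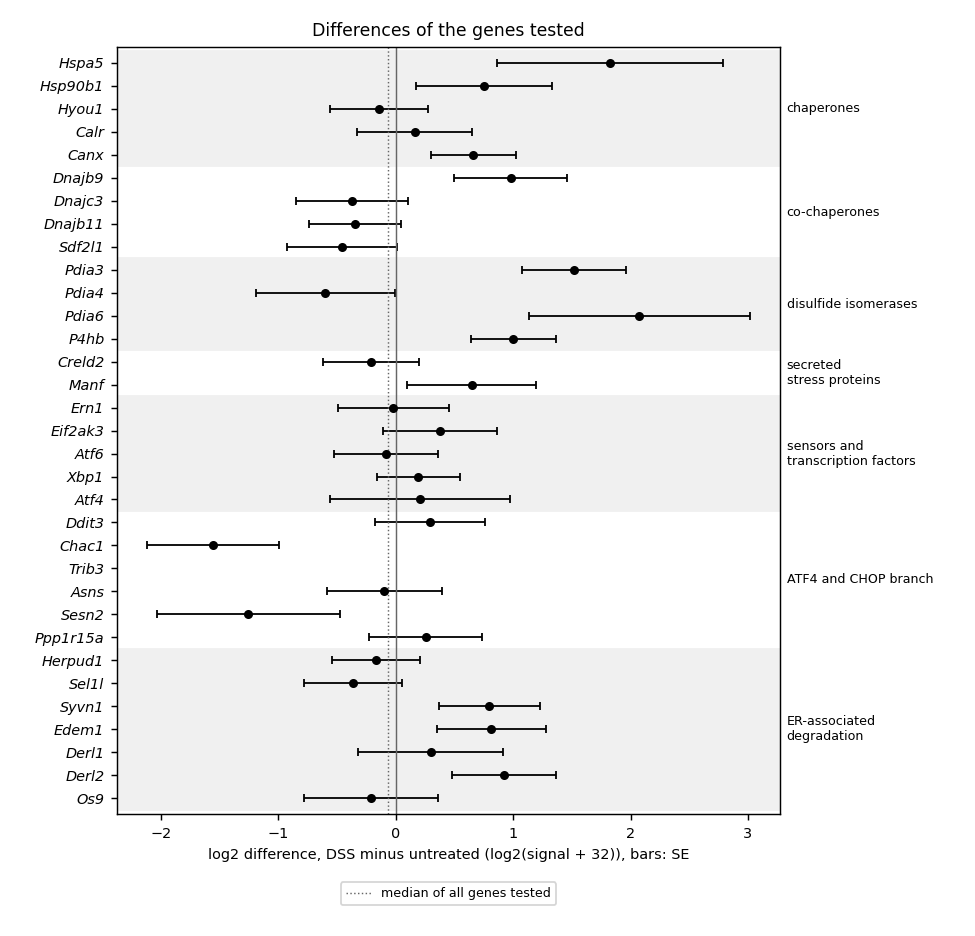
Log2 difference, DSS minus untreated, of the 32 ER genes tested, by role; points are limma estimates, bars their standard errors (n = 2 arrays per group), and the dotted line is the median of all genes tested, at -0.07. Estimates run from -1.55 for Chac1 to 2.08 for Pdia6, and Trib3 has no estimate.

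The disulfide isomerases, which form and reshuffle disulfide bonds in new proteins, were the role with the highest median log2 difference, 1.26 over 4 genes, or 0.75 with untreated replicate 2 left out. Pdia3 (ERp57), which acts on glycoproteins held by calreticulin and calnexin, read 747 and 590.4 on the DSS arrays, against 238 and 186 on the untreated arrays. Both DSS values stood well clear of both untreated values, and the log2 difference was 1.52 ± 0.44 (SE, limma adjusted p = 0.649). P4hb, the founding protein disulfide isomerase, read 5404 and 6078 on the DSS arrays, against 2805 and 2887 on the untreated arrays. The replicates of each group lay close together, and the log2 difference was 1.00 ± 0.36 (limma adjusted p = 0.649). Pdia6, an isomerase that binds BiP, read 2127 and 2578 on the DSS arrays, against 1683 and 153 on the untreated arrays. Its groups did not overlap, but untreated replicate 1 lay nearer to both DSS values than to untreated replicate 2. The log2 difference was 2.08 ± 0.94 (limma adjusted p = 0.649). Pdia4, which read 161 and 195 on the DSS arrays and 394 and 204 on the untreated arrays, went the other way at -0.60 ± 0.59.

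Among the chaperones the median log2 difference was 0.66 over 5 genes, but 0.23 with untreated replicate 2 left out and 0.41 with DSS replicate 1 left out. Hspa5, which encodes BiP, the ER's Hsp70 chaperone, which also binds and restrains the stress sensors, read 18502 and 22534 on the DSS arrays, against 18355 and 1786 on the untreated arrays. Untreated replicate 1 was level with DSS replicate 1, and untreated replicate 2 alone was low, which gave a log2 difference of 1.82 ± 0.96 (limma adjusted p = 0.664). Canx, the membrane-bound lectin chaperone calnexin, read 11982 and 12388 on the DSS arrays, against 6939.7 and 8541 on the untreated arrays. Here the groups were separate and the replicates close, for a log2 difference of 0.66 ± 0.36 (limma adjusted p = 0.673). Hsp90b1 (GRP94), the ER's Hsp90, read 3126 and 1923 on the DSS arrays, against 2457 and 839 on the untreated arrays, and the groups overlapped. Calr, the soluble lectin chaperone calreticulin, read 10808 and 7294 on the DSS arrays and 5351 and 11780.3 on the untreated arrays, so that the highest and the lowest value were both untreated. The same held for Hyou1, a nucleotide exchange factor for BiP, at 3329 and 3964 on the DSS arrays and 3103 and 5208 on the untreated arrays.

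Co-chaperones of BiP did not follow one direction. Dnajb9 (ERdj4), a J-domain protein that brings BiP to IRE1, read 4667 and 2809 on the DSS arrays, against 2516 and 1314 on the untreated arrays, a log2 difference of 0.98 ± 0.48 (limma adjusted p = 0.651). Its groups were separate by a narrow margin. Dnajb11 (ERdj3) read 1832 and 1666 on the DSS arrays, against 1909 and 2599 on the untreated arrays, and both DSS values were the lower ones. Sdf2l1, a partner of ERdj3, read 271 and 458 on the DSS arrays and 426 and 579 on the untreated arrays, and Dnajc3 read 1525 and 1073 on the DSS arrays and 1179 and 2345 on the untreated arrays, with overlap in both. The secreted stress proteins overlapped too. Manf, a secreted protective factor induced by ER stress, read 1525 and 2101 on the DSS arrays, against 1879.55 and 676 on the untreated arrays. Creld2 read 2221 and 2026 on the DSS arrays, against 3067 and 1971 on the untreated arrays.

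The sensors and the transcription factors they act through had small estimated differences. Their standard errors, 0.35 to 0.77, were too wide to show that the groups were alike. Xbp1 read 16336 and 18401 on the DSS arrays, against 14504 and 15846 on the untreated arrays, a separation of groups with a log2 difference of only 0.19 ± 0.35. Eif2ak3 (PERK) read 1181 and 668 on the DSS arrays and 909 and 505 on the untreated arrays, and the replicates of each group differed more than the groups. Ern1 (IRE1) read 2466 and 1168 on the DSS arrays, with both untreated values, 1917 and 1548, between them. Atf6 read 471 and 349.7 on the DSS arrays and 366 and 511 on the untreated arrays, again with overlap. Atf4 read 14598 and 10932 on the DSS arrays, between the untreated values of 26285 and 4557. These 5 genes had log2 differences between -0.08 and 0.38, each smaller than its standard error.

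The ATF4 and CHOP branch held the genes with the lowest differences. Chac1, a gamma-glutamylcyclotransferase that breaks down glutathione and an ATF4 target, read 147 and 92.5 on the DSS arrays, against 382 and 432 on the untreated arrays. The 2 groups were far apart relative to their replicates, at -1.55 ± 0.56 (limma adjusted p = 0.649), but both DSS values were below the medians of their arrays. The gene was thus tested only because its untreated values were high, and its negative difference carries that choice. Sesn2, a stress-induced inhibitor of mTORC1 signalling, read 161 and 74.3 on the DSS arrays, against 569 and 163 on the untreated arrays, and the nearest values of the groups almost touched. Ddit3 (CHOP) read 1883 and 2187 on the DSS arrays, between the untreated values of 1137 and 2395. Asns, the asparagine synthetase that ATF4 induces, read 345 and 262 on the DSS arrays and 261 and 401 on the untreated arrays. Ppp1r15a (GADD34), which directs the phosphatase that reverses PERK signalling, read 731 and 486 on the DSS arrays and 681 and 357 on the untreated arrays. Groups overlapped in these 3 genes. Trib3, a pseudokinase induced by CHOP, did not pass the filter on low values. Its brighter probe set read 206 and 154 on the DSS arrays and 138 and 73.3 on the untreated arrays.

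Genes of ER-associated degradation had a median log2 difference of 0.30 over 7. It was 1.16 with untreated replicate 1 left out, and -0.08 with probe sets ending in _x_at or _s_at left out. Derl2, of the derlin family that helps move proteins out of the ER, read 1544 and 1458 on the DSS arrays, against 1056 and 569.7 on the untreated arrays, a log2 difference of 0.92 ± 0.44 (limma adjusted p = 0.651). Syvn1 (HRD1), the ubiquitin ligase at the centre of the pathway, read 1053 and 961 on the DSS arrays, against 737 and 432 on the untreated arrays, for a difference of 0.80 ± 0.43 (limma adjusted p = 0.671). Edem1, which delivers misfolded glycoproteins to the ligase, read 3591 and 2908 on the DSS arrays, against 2600.2 and 1277 on the untreated arrays, for a difference of 0.81 ± 0.46 (limma adjusted p = 0.679). All 3 had separate groups, with untreated replicate 2 as the lowest array. Each also has another probe set above the filter, on which the groups overlapped. The log2 differences there were 0.52 for Derl2, -0.08 for Syvn1 and 0.45 for Edem1. Herpud1, a stress-induced scaffold of the ligase complex, was slightly lower on both DSS arrays, at 1246 and 1283, than on the untreated arrays, at 1372 and 1484. Its other probe set went the other way with separate groups. That one read 828 and 585 on the DSS arrays and 544 and 308 on the untreated arrays, a log2 difference of 0.72. Sel1l, the adaptor of Syvn1, read 1496 and 1399.6 on the DSS arrays and 1462 and 2392 on the untreated arrays. Derl1, at 15906 and 15485 on the DSS arrays, lay between the untreated values of 24825 and 6557. So did the lectin gene Os9, at 5907 and 5213 on the DSS arrays and 3620.4 and 11418.5 on the untreated arrays.

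**Figure D3:**
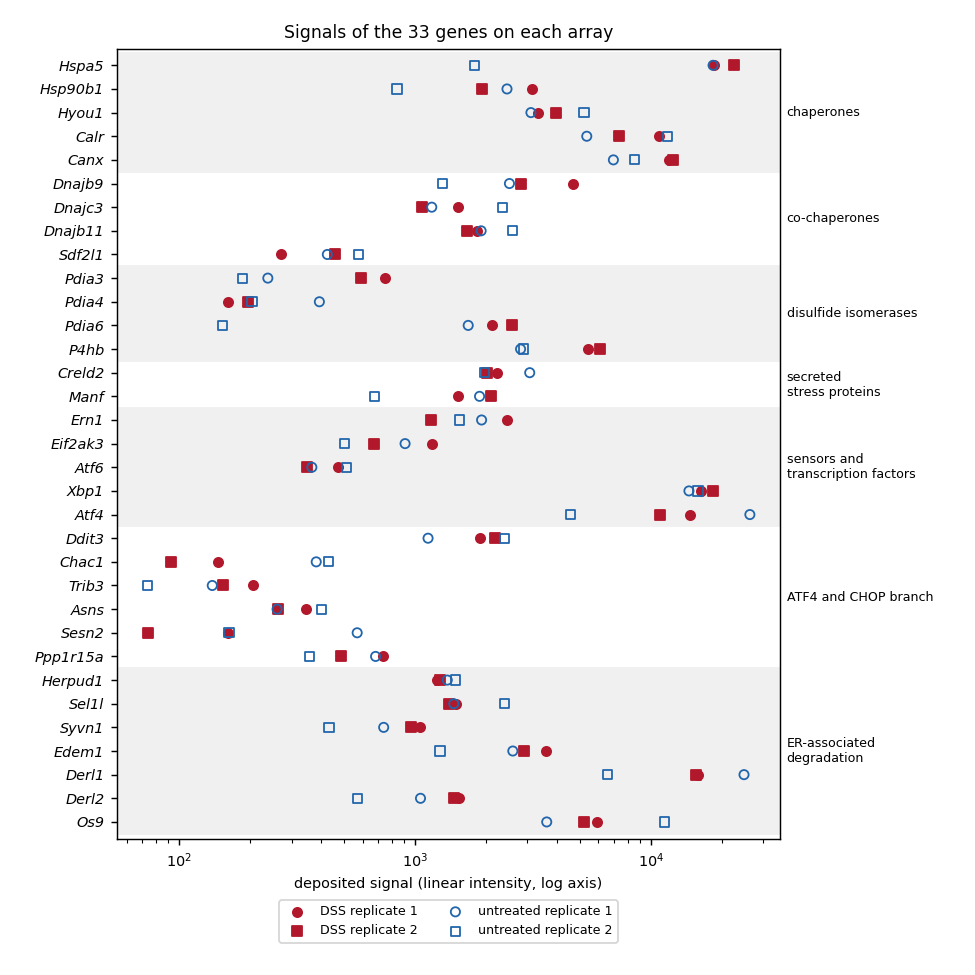
Deposited signal of each of the 33 ER genes on each array (linear intensity on a log axis), by role; filled red symbols are the 2 DSS arrays and open blue symbols the 2 untreated arrays. The untreated arrays stand far apart for Hspa5 (18355 and 1786) and Pdia6 (1683 and 153), while Pdia3, P4hb and Chac1 show separate groups.

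When the genes were set beside the elements of their promoters, the 8 with an ER stress element had log2 differences of -0.37 to 2.08 and a median of 0.71. That median was 0.29 with untreated replicate 2 left out, and 0.37 with probe sets ending in _x_at or _s_at left out. In 4 of the 8, Hspa5, Pdia6, Canx and Syvn1, both DSS arrays lay above both untreated arrays, and in 0 below, where the shares of all genes were 17.2% above and 23.8% below. These counts depend on the probe set read. Canx and Syvn1 were read on probe sets ending in _s_at, and without these their differences were -0.38 and -0.08. Both DSS arrays then lay below both untreated arrays for Canx, at 413 and 307 against 479 and 469, and the groups overlapped for Syvn1. The Hspa5 groups were separate only by 18502 on DSS replicate 1 against 18355 on untreated replicate 1, and they overlapped on both of its other probe sets. On the other probe set of Pdia6 the groups overlapped too, at 188 and 214 on the DSS arrays and 35.4 and 245 on the untreated arrays. The 20 tested genes with a window but no such element had a median of 0.09, which ran from -0.07 to 0.15 when 1 array was left out, with 6 separate on the higher side and 5 on the lower side. The 3 tested genes with a C/EBP-ATF response element had differences of -1.55 (Chac1), -0.17 (Herpud1) and -0.10 (Asns). Their common sign has limits. Chac1 passed the filter only through the untreated arrays, and the other probe set of Herpud1 gave 0.72. Trib3, which also has the element, did not pass the filter, and its brighter probe set read higher on both DSS arrays. These are descriptions of few genes, and no test was made of the difference between them.

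The 2 untreated arrays differed from each other more than the DSS arrays did over these genes. The median absolute log2 gap between replicates was 0.29 in DSS and 0.83 in untreated samples, against 0.36 in DSS and 0.68 in untreated samples over all genes. The untreated gap was the larger one for 26 of the 32 genes (81.2%), against 67.6% of all genes. Untreated replicate 2 held the lowest value for 14 of the 32 (43.8%), against 28% of all genes. Of the 20 macrophage and dendritic cell markers tested, 11 were lowest on untreated replicate 2, 7 on untreated replicate 1 and 1 on each DSS array. Their sums on the untreated arrays, 35564 for replicate 1 and 38504 for replicate 2, lay close together. Tyrobp, which did not rise with DSS, was the largest part of these sums, at 18772 and 22951. Csf1r read 4342 on untreated replicate 1 and 1162 on untreated replicate 2, C1qb 1858 and 325, and Lyz2 611 and 135. Fcer1g, like Tyrobp, was higher on untreated replicate 2, at 2724 and 7230. The part of such cells in these gaps was not tested.

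The choice of untreated array therefore set the size of most differences. Against untreated replicate 2 alone, Hspa5 differed by 3.49 and Pdia6 by 3.68 on the log2 scale, and against untreated replicate 1 alone by 0.15 and 0.47. With untreated replicate 1 left out, limma called 12 of the 32 genes higher, against 9.11% of all genes, and 1 lower (Os9), against 5.3% of all genes. The 12 were Hspa5, Hsp90b1, Dnajb9, Pdia3, Pdia6, P4hb, Manf, Atf4, Syvn1, Edem1, Derl1 and Derl2. With untreated replicate 2 left out it called P4hb higher, against 4.42% of all genes, and Atf4 lower, against 1.66% of all genes. Such a fit assumes that the lone untreated array varies as the DSS pair does. The 2 fits also share both DSS arrays, so a like result in both is not independent support. P4hb gave log2 differences of 0.98 without untreated replicate 1 and 1.02 without untreated replicate 2, because its untreated values lay close together. Atf4 gave 1.46 without untreated replicate 1 and -1.06 without untreated replicate 2. Pdia3, at 1.67 and 1.37, had limma adjusted p-values of 0.0182 and 0.0646. Chac1 gave -1.64 without untreated replicate 1 and -1.47 without untreated replicate 2, and was called by neither fit. It passed the filter only through the untreated arrays, which favours a negative difference in each fit, so the like values add no support.

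**Figure D4:**
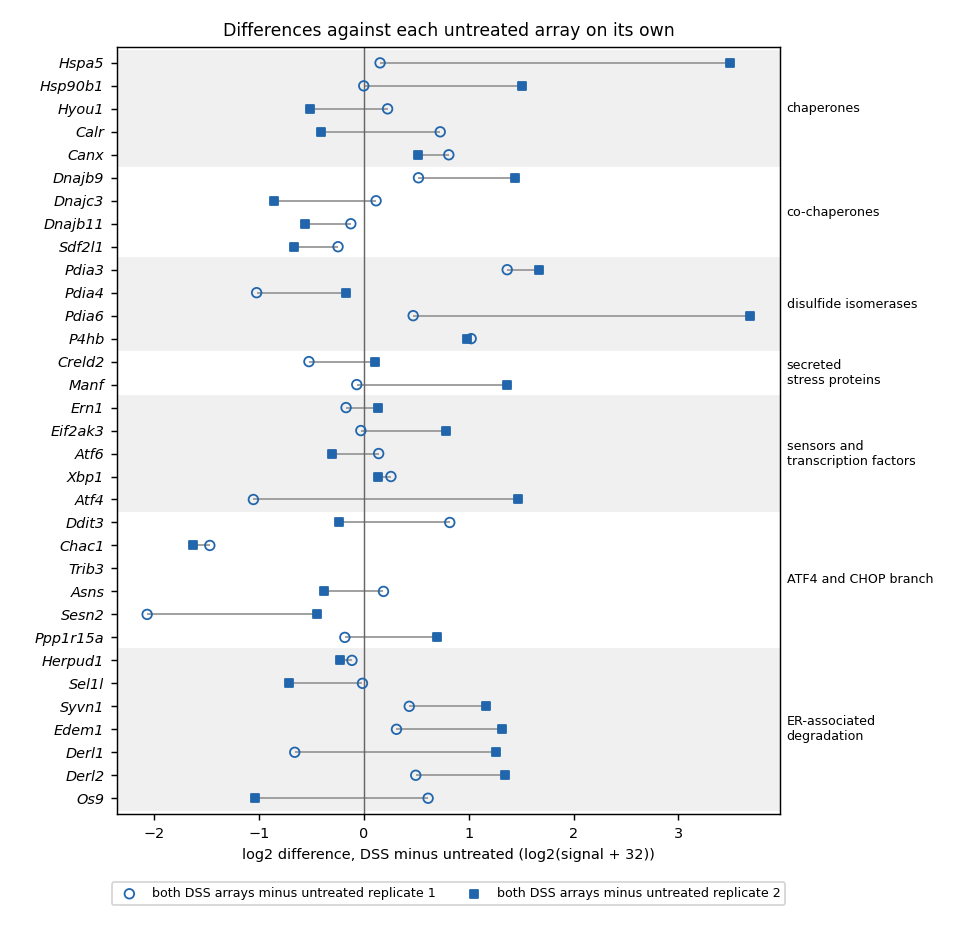
Log2 difference of each tested ER gene against each untreated array on its own; each line joins the mean of both DSS arrays minus untreated replicate 1 (open circle) and minus untreated replicate 2 (filled square). The ends nearly coincide for P4hb (1.02 and 0.98) and lie far apart for Hspa5 (0.15 and 3.49), Pdia6 (0.47 and 3.68) and Atf4 (-1.06 and 1.46).

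Different probe sets of a gene often disagreed, which limits what one of them can show. Of the 21 genes with more than 1 probe set above the filter, 11 had probe sets of opposite sign, and the median range of log2 differences within a gene was 0.89. Hspa5 was read by 3 probe sets, of which the second repeated the low untreated replicate 2, with overlapping groups, at 4319 and 2749.9 on the DSS arrays and 3046 and 277 on the untreated arrays. The third did not, with 4424 and 6012 on the DSS arrays and 5848 and 5764 on the untreated arrays, a difference of -0.17. The names of these other two end in _s_at and _x_at, which mark probes that can bind related transcripts. The second probe set of Pdia3 overlapped, at 293 and 247 on the DSS arrays and 52.4 and 809.6 on the untreated arrays. For Canx, the others gave -0.38 and 1.98. The second probe set of Pdia4 read 109.5 and 81.2 on the DSS arrays, against 409 and 417 on the untreated arrays, a difference of -1.81, in the same direction as the first. The second of Sesn2 read 41.7 and 97.5 on the DSS arrays, against 246 and 478 on the untreated arrays, a difference of -1.95 in the direction of the first. These second probe sets of Pdia4 and Sesn2 lay below the medians of both DSS arrays, 157.1 and 163.3. They passed the filter only through the untreated arrays, which favours a negative difference, so their direction adds no support to the first. The second of Os9 gave -1.19 with separate groups, at 589 and 399 on the DSS arrays and 1346 and 985 on the untreated arrays. Among the 4 probe sets of Xbp1, differences ran from -0.59 to 0.74. P4hb, Dnajb9 and Chac1 have 1 probe set each. Hyou1, Canx, Dnajc3, Xbp1, Atf4, Syvn1 and Derl1 were read on probe sets ending in _x_at or _s_at, so their values are uncertain. Arrays of this kind read transcripts near their 3' ends, and the 3'-to-5' signal ratio of the Actb control was 15.97 and 10.6 on the DSS arrays and 14.7 and 23.0 on the untreated arrays; the part of this in the disagreements was not tested.

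**Figure D5:**
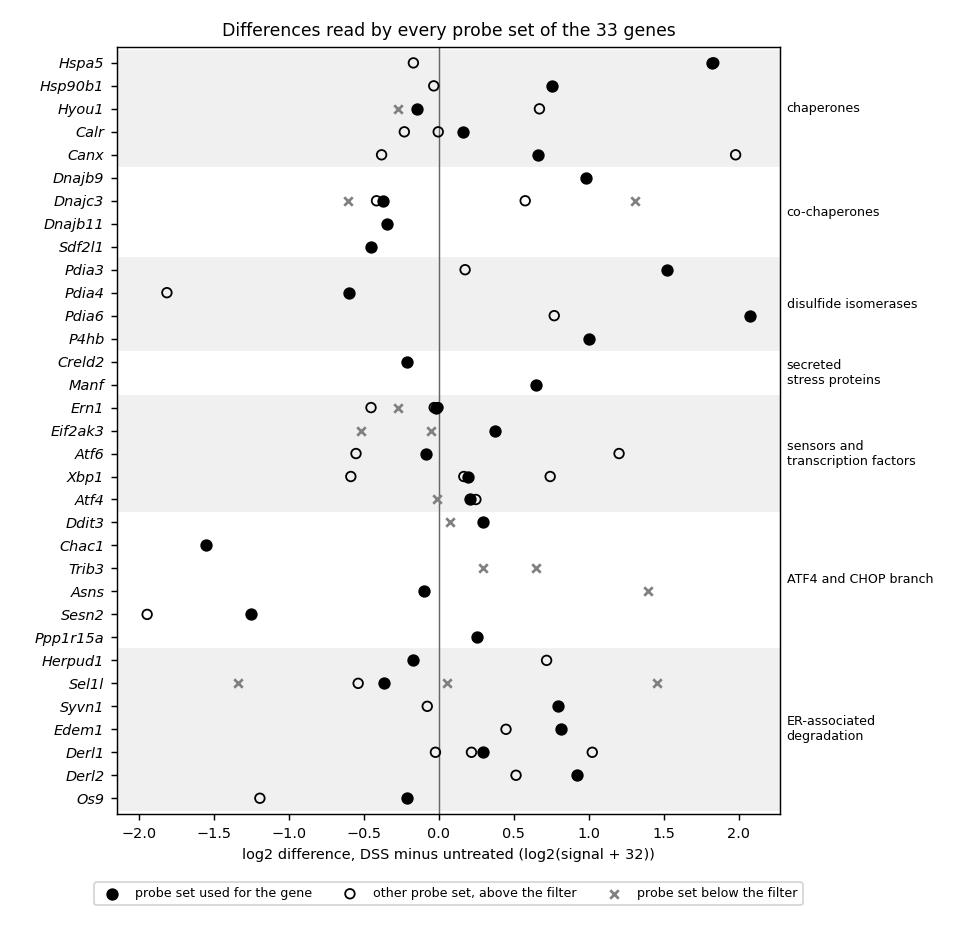
Log2 difference, DSS minus untreated, of each of the 78 probe sets of the ER genes; filled circles are the probe sets used, open circles other probe sets above the filter and crosses those below it. Hspa5 spans -0.17 to 1.83 and Xbp1 -0.59 to 0.74, while both probe sets of Sesn2 lie below 0, at -1.26 and -1.95. The Sesn2 probe set at -1.95 passed the filter only through the untreated arrays.

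Other genes of the ER, from 4 lists of 89 genes that are not among the 33, gave 0 calls among 81 tested and 4 (4.94%) at an unadjusted limma p under 0.05, against 7.52% of all genes. Groups were separate on the higher side for 24 (29.6%, against 17.2% of all genes) and on the lower side for 10 (12.3%, against 23.8% of all genes). Their median log2 difference of 0.20 was -0.01 with untreated replicate 2 left out. The translocon and N-glycosylation list, which admits proteins to the ER and attaches their first sugars, had 10 of 18 genes with both DSS arrays above both untreated arrays (55.6%, against 17.2% of all genes), 1 with both below and a median of 0.33. Spcs3, a subunit of the signal peptidase, read 1551 and 1703 on the DSS arrays, against 921 and 758 on the untreated arrays, and Ssr1, of the translocon-associated complex, read 2907 and 2666 on the DSS arrays, against 1889.89 and 1535 on the untreated arrays. Their log2 differences were 0.93 ± 0.39 and 0.70 ± 0.38 (limma adjusted p = 0.649 and 0.671). The gene with both DSS arrays below was Sec62, a translocon subunit, at 7218 and 8573 on the DSS arrays and 9852 and 9205 on the untreated arrays, a difference of -0.27 ± 0.36 (limma adjusted p = 0.835) on a probe set ending in _s_at. Other folding and oxidation genes had a median of 0.01 over 20, with 5 separate on the higher side and 4 on the lower. Erp29, a chaperone of secreted proteins, read 456 and 1033 on the DSS arrays, against 331 and 225 on the untreated arrays, and the thioredoxin-domain gene Txndc11 read 64.6 and 93.6 on the DSS arrays, against 281 and 293 on the untreated arrays. Txndc11, like Chac1, passed the filter only through the untreated arrays. Other degradation genes had a median of 0.08 over 15, which ran from -0.27 to 0.51 when 1 array was left out (without untreated replicate 2 and without untreated replicate 1). Of these Ube2g2, a ubiquitin-conjugating enzyme of the pathway, read 702 and 672 on the DSS arrays, against 271 and 127 on the untreated arrays, a difference of 1.71 ± 0.50 (limma adjusted p = 0.649). Herpud2, at 1214 and 943 on the DSS arrays and 2194 and 2734 on the untreated arrays, differed by -1.17 ± 0.39. Other stress sensors and ATF4 targets had a median of 0.11 over 28, which ran from -0.04 without untreated replicate 2 to 0.26 without DSS replicate 2. Atf3, a transcription factor induced by ATF4, read 482 and 909 on the DSS arrays and 262 and 374 on the untreated arrays, while the related Atf5 read 197 and 342 on the DSS arrays and 436 and 633 on the untreated arrays.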

How the data were processed

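Gamma delta intraepithelial lymphocyte RNA from 2 DSS and 2 untreated mouse colon samples was read on 1-colour arrays, 1 array a sample. Per the labels' protocols, RNA was isolated with a PicoPure kit and amplified with a RiboAmp HS kit. The deposited values are linear signal intensities, 1 per probe set. The submitters' processing notes name GCOS; how it was set is not given in the sources used here. Each array's mean without its lowest and highest 2% is 500.0, so arrays had been scaled alike. Precision is limited by the number of arrays.

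A platform table named 34945 probe sets with 1 gene symbol, besides 64 control probe sets, which were left out; a table of mouse genes (GRCm38.p6) updated 0 symbols. The filter asked that a probe set exceed its array's median on 2 or more arrays. The log2(signal + 32) values were fitted without rescaling in R 4.3.3 with limma 3.58.1 (lmFit, eBayes with an intensity trend), group as the only term, over 12424 genes, with Benjamini-Hochberg adjustment over all of them. Fold changes on this scale understate the change of dim genes. The limma step was tested on simulated data. Promoters came from RefSeq. The genes, lists and tests were chosen with earlier results of these data known. All 33 genes are named; from other ER lists, at most 2 of the smallest p in each direction. Alternatives covered scaling, intensity-dependent normalization, pseudocount, filter, probe set choice, variance model, a replicate block and leaving out each array. Same-numbered samples did not deviate together (r = 0.0522 across genes), and the numbers were not taken as pairs. With 2 arrays per group this value cannot show whether same-numbered samples share a sort.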

Additional observations from a re-analysis of the deposited data

How the results depend on the processing

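Over the 11 alternatives that keep all 4 arrays, limma called 0 of the ER genes and 0 of the other ER pathway genes. Among all genes it called 3 when probe sets were averaged and 67 with the replicate number as a block, against 0 otherwise, and the smallest adjusted p of an ER gene under the block was 0.15. Leaving out 1 array gave 0 to 1791 calls among all genes, 0 to 13 among the ER genes and 0 to 16 among the other ER genes; the highest came without untreated replicate 1, and 755, 2 and 7 without untreated replicate 2. The cause was not tested. The median of the ER genes, 0.20 as reported, was 0.54 after scaling to a common median, which moved the median of all genes to 0.25, and ran from -0.021 (without DSS replicate 1) to 0.36 (without DSS replicate 2) when 1 array was left out. Without DSS replicate 1 the median of all genes was -0.04. Atf4 ran from -1.06 to 1.46 when 1 array was left out. Common-median scaling turned the sign of 7 of the 32 uncalled differences (25 positive, 7 negative), quantile normalization and cyclic loess of 2 each, probe set averaging and leaving out _x_at and _s_at probe sets of 4 each. With _s_at and _x_at probe sets left out, Canx differed by -0.38, Syvn1 by -0.08, Dnajc3 by 0.58 and Hyou1 by 0.67. Dim genes near the array medians, such as Chac1, Pdia4 and Sesn2, are the least certain.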
